A study of Bos taurus with 42 samples.

Results

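The comparison was made in the cerebrum of bovine fetuses at day 50 of gestation, between fetuses of restricted and of control dams. It used the 14 cerebrum libraries among the 42 RNA-Seq libraries of the series, chosen by their tissue label, with the liver and hind limb muscle libraries of the same fetuses kept for reference. The dams were Angus-cross heifers, 1 fetus was taken from each, and no genetic line, drug or other treatment set the groups apart. In the control group (CON), 7 heifers were fed 100% of their energy requirement from breeding onwards, and in the restricted group (RES), 7 heifers were fed 60% of the CON intake. The CON fetuses were 6 males and 1 female, and the RES fetuses were 5 males and 2 females. The libraries are named here by diet and animal number, so that RES 1 is the cerebrum library of restricted fetus 1. Each library came from a fetus of its own, and the labels name no sequencing batch, so no comparison was repeated within batches.

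Early in gestation the wall of the forebrain is built of radial glia, the stem cells that give rise to intermediate progenitors and to neurons. Dorsal progenitors make the glutamatergic neurons of the cortex, which carry factors such as *NEUROD6*, *TBR1* and *NEUROD2*. Ventral progenitors make GABAergic interneurons, while the choroid plexus, meninges and blood vessels lie around and within the same tissue. A growing brain draws glucose and amino acids from the dam, and insulin-like growth factors, mTOR and stress-response genes are among those known to follow nutrient supply.

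The label of the tissue was first checked against markers. *NEUROD6* (ENSBTAG00000000558), a transcription factor of young cortical neurons, ran from 30.7 to 463 CPM over the cerebrum libraries, with a median of 129, where CPM is a gene's count scaled to the total of its library. In the liver libraries its median was 0 and its highest value 0.174 CPM, and in muscle the highest was 2.25 CPM. *ELAVL4* (ENSBTAG00000021046), a neuronal RNA-binding protein, ran from 63.4 to 441 CPM in the cerebrum, with a median of 269, against a median of 0 in the liver and 0.164 in muscle, where the highest library reached 187. Every cerebrum library thus carried neuronal transcripts, and the lowest *ELAVL4* level of all was that of RES 1.

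The cerebrum libraries held from 4,145,093 to 7,576,159 counts, with a median of 5,322,765.5, and RES 1 was the deepest. A count of 3, taken as the least that a library can show, corresponded to 0.396 CPM in RES 1 and to 0.724 CPM in RES 25, the shallowest library. These limits cover counting error only. At least 1 count was found for 16,718 to 17,938 genes per library. A gene was dropped when 80% or more of the 14 libraries had less than 1 CPM of it, which kept 15,151 of the 22,664 genes in the file. The file lists Ensembl identifiers without symbols, and 4,627 of the genes kept could be named.

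A pair of libraries stood apart from the others. On principal components of log2 CPM, the first component took 38.1% of the variance and placed RES 1 at 154, against -43.2 to 59.1 for the other 13 libraries. The second took 15.2% and placed CON 23 at 96.0, against -38.0 to 18.8 for the rest. RES 1 had the highest level of 3,398 genes and the lowest of 3,971 among the 15,151, and CON 23 the highest of 3,352 and the lowest of 2,152. The mean rank correlation (Spearman's rho) with the other libraries was 0.830 for RES 1 and 0.905 for CON 23, and from 0.936 to 0.960 for the remaining 12.

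**Figure D1:**
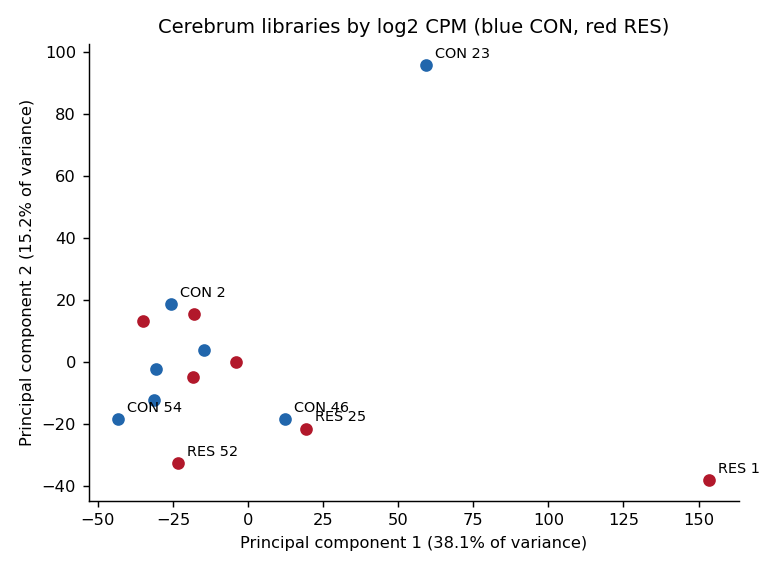
Positions of the 14 cerebrum libraries on the leading principal components of log2 CPM, in arbitrary units, with CON in blue and RES in red. RES 1 lies far to the right at 154 and CON 23 at the top at 96.0, while the other 12 libraries of both diets are mixed.

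RES 1 held transcripts of several tissues that are not brain. The 10 genes with most counts took 15.1% of its counts, and the mitochondrial genes 14.7%, against 2.73% to 6.89% in the other libraries. The markers below were summed in CPM of all counts, without normalization factors. The liver list, of which 13 of 17 genes could be named in the file, summed to 572 CPM in RES 1, with *AHSG*, the plasma protein fetuin A, as its gene with most counts. The skeletal muscle list (15 of 17 genes named) summed to 423 CPM, led by *ACTC1*, the cardiac actin of fetal muscle, and the red blood cell list (8 of 15) to 293 CPM, led by the alpha globin *HBA*. These sums were 0.418%, 4.90% and 3.04% of the median of the same list in the liver, in the muscle and, for the red blood cells, in the liver libraries. The transcription factor *MYOG*, which marks muscle cells alone, was at 6.47 CPM in RES 1 and at 0 counts in 9 of the 14 libraries.

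Choroid plexus, meningeal and epithelial markers were also high in RES 1. *TTR*, the thyroid hormone carrier made by the choroid plexus, brought the choroid plexus list (2 of 7 genes named, *TTR* and *AQP1*) to 5,920 CPM. The meninges and fibroblast list (3 of 12) summed to 149 CPM, led by the sulfate transporter *SLC13A4*, and the surface epithelium list (4 of 9) to 67.1 CPM, led by the keratin *KRT19*. The cartilage list (5 of 10, led by *COL9A1*) summed to 167 CPM and the endothelial list (3 of 10, led by *TEK*) to 120 CPM. By contrast, the list of genes of young neurons (13 of 14, led by *STMN2*) summed to 3,271 CPM in RES 1, below the 7,139 to 11,021 CPM of the other libraries. The part of these other tissues in any difference between the diets was not tested, and named genes and lists are therefore given with all 14 fetuses and, for most, again without RES 1.

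RES 1 was not the only library with such transcripts. The liver list summed to 442 CPM in RES 33, 125 in CON 2, 122 in RES 25 and 62.3 in RES 55, and to at most 20.9 CPM in the other 9 libraries. The red blood cell list reached 134 CPM in RES 25 and 42.1 in RES 33, against at most 28.4 in CON. The choroid plexus list ran from 16.2 to 1,231 CPM in CON and, without RES 1, from 31.7 to 1,469 CPM in RES, where RES 25 and RES 52 were high, as was CON 46. In each of these lists the RES group held the libraries with the highest sums, but both groups also held libraries with little of them.

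CON 23 differed in another way. Its 30 nameable cytoplasmic ribosomal protein genes summed to 57,316 CPM, against 21,358 to 34,318 in all other libraries but RES 1, which had 52,446. Genes of radial glia summed to 95.0 CPM in CON 23 and to between 238 and 355 in the other CON libraries. Its normalization factor by the trimmed mean of M-values (TMM) was 0.531, and those of the 12 libraries other than RES 1 were from 0.961 to 1.14. TMM-normalized CPM, which are used for single genes from here on, are scaled up in CON 23 by this factor.

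**Figure D2:**
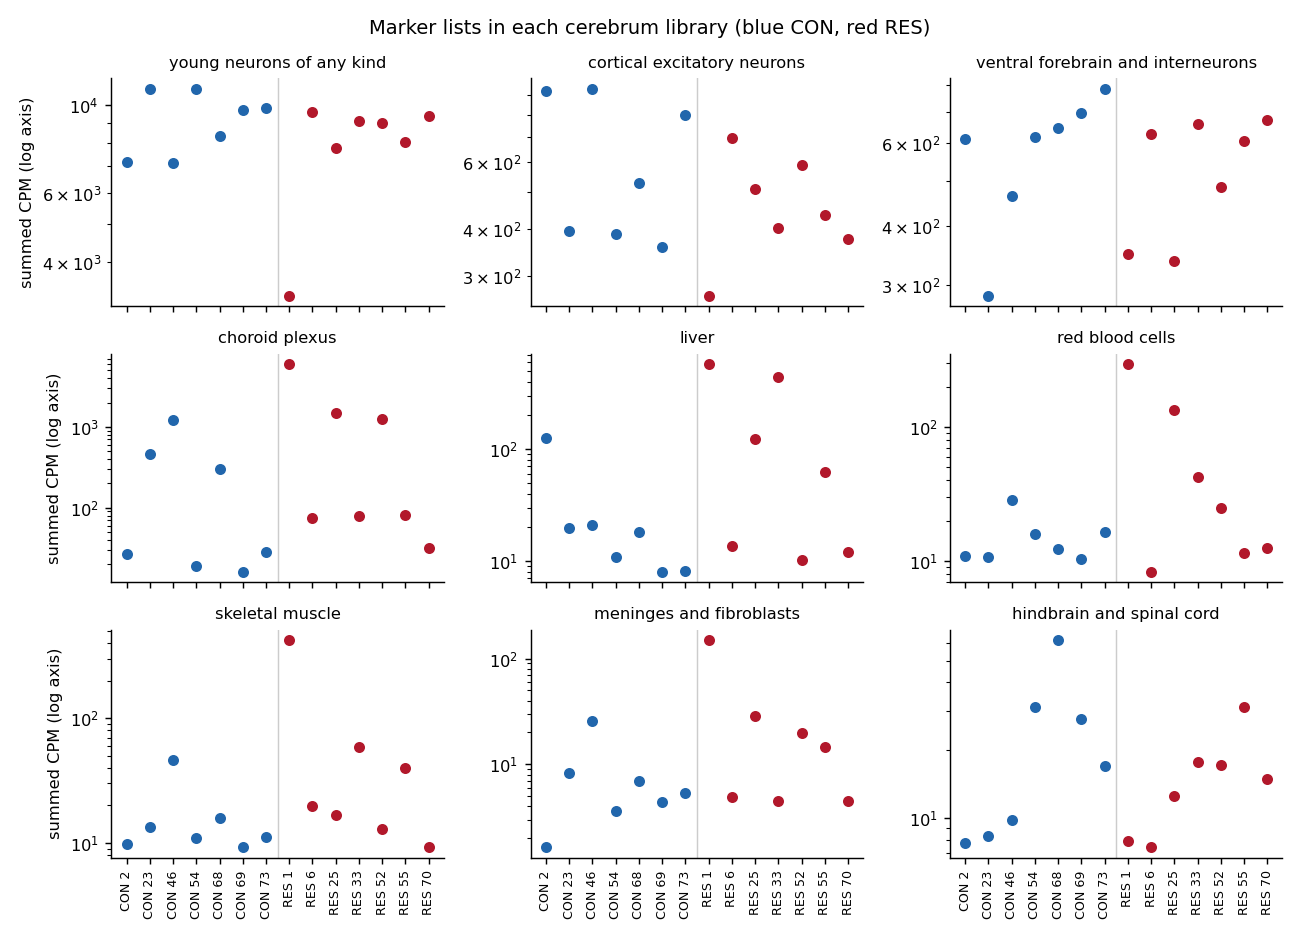
Summed CPM of 9 marker lists in each of the 14 cerebrum libraries, on log axes, with CON in blue and RES in red, and 1 point per library. RES 1 has the highest sums for the choroid plexus, liver, red blood cell, skeletal muscle and meningeal lists and the lowest for young neurons, and CON 68 has the highest for hindbrain and spinal cord.

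The diets were compared with edgeR's quasi-likelihood test, in which fetal sex was a further factor and *p* was adjusted by Benjamini-Hochberg over the 15,151 genes. No gene passed an adjusted *p* of 0.05 (0 genes, 0%), and the lowest value was 0.999. Before adjustment, 386 genes had *p* under 0.05, of which 331 were higher in RES (2.18% of the genes tested) and 55 lower (0.363%). DESeq2's Wald test also gave 0 genes at an adjusted *p* under 0.05 and 334 at an unadjusted *p* under 0.05, with a lowest adjusted *p* of 0.0964, for *HSPA1A*. Without RES 1, the edgeR test left 0 genes at an adjusted *p* under 0.05 and 110 at an unadjusted *p* under 0.05, of which 54 were higher in RES (0.356%) and 56 lower (0.37%). RES 1 was the highest of all 14 libraries for 305 of the 331 genes that were higher in RES. The genes with an unadjusted *p* under 0.05 in both fits numbered 41 that were higher and 27 that were lower in RES.

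Most genes had estimates near 0. Without RES 1, the log2 fold change (RES over CON) lay within 0.5 of 0 for 91.8% of the genes, and its median standard error (SE) was 0.26. With all 14 fetuses the share was 86.6% and the median SE 0.29. A log2 fold change above 1 was found for 530 genes with RES 1 and for 85 without it, and one below -1 for 90 and 135 genes. The median over all genes was -0.03 with RES 1 and -0.04 without it. No gene had CON and RES values that did not overlap, with the 7 RES fetuses (0% of genes higher and 0% lower) or with the 6 RES fetuses other than RES 1 (0% and 0%). The lowest adjusted *p* of any gene rounded to 0.999 in both of these fits, so the genes that follow are described by the size of their estimate and its spread and none is called changed. SEs are approximate, taken from the estimate and its *F* statistic, and all *p* values that follow are unadjusted and from edgeR.

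*HSPA1A* (ENSBTAG00000025441) had the lowest *p* of the named genes that were lower in RES. It encodes the stress-inducible heat shock protein of the HSP70 family, which refolds damaged proteins. Its TMM-normalized CPM in the 7 CON fetuses were 12.99 at the lowest, 94.3 at the median and 237 at the highest, and in the 7 RES fetuses 11.8, 29.2 and 48.7. The lowest CON value was that of CON 23, and the other 6 CON fetuses lay between 77.8 and 237, above all 7 RES fetuses. RES 1, at 29.2, was in the middle of its group. The level was 3.81 times as high in CON, with a log2 fold change of -1.93 ± 0.47 (SE, unadjusted *p* = 0.000794), and it stayed at -1.94 ± 0.50 without RES 1 (unadjusted *p* = 0.00149).

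CON 23 was the library that decided the overlap of *HSPA1A*. Without CON 23, a choice made after the values were seen, the log2 fold change was -2.10 ± 0.34 (unadjusted *p* = 2.26e-05, adjusted *p* = 0.343). *HSPA1A* was then the only gene (0.0066% of the 15,151) for which all RES fetuses were below all CON fetuses, and 1 gene without a symbol (0.0066%) was above. Without RES 1 and CON 23 together, 2 genes (0.0132%) had every RES fetus below every CON fetus, *HSPA1A* and *BAIAP2*, and 1 (0.0066%) was above. *BAIAP2*, which encodes an actin regulator of dendritic spines, had a log2 fold change of -0.12 with all 14 fetuses. Counts of *HSPA1A* are uncertain in 1 respect, since reads that match near-identical copies of this gene cannot be assigned to a single copy.

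The other heat shock genes had smaller estimates. *HSPA8*, the constitutive HSP70 of the cell, had 1,499 to 3,542 CPM in CON (median 2,422) and 1,346 to 2,339 in RES (median 1,644), and 4 CON fetuses were above every RES fetus. This gave a log2 fold change of -0.43 ± 0.25 (unadjusted *p* = 0.102), and of -0.38 ± 0.25 without RES 1. Of the 8 heat and cold shock genes kept, 1 (*HSPA1A*) had an unadjusted *p* under 0.05, in both fits, beside 0.363% and 0.37% of all genes that were lower at this level, and the median log2 fold change was -0.25 (-0.23 without RES 1). Without RES 1 and CON 23 together, 1 of the 8 was higher and 1 (*HSPA1A*) lower at this level. In that fit 72 of all genes were higher and 96 lower. *HSP90AA1* stood at -0.26, *DNAJA1* at -0.33, and *HSF1*, the factor that switches on the heat shock genes, at -0.25, while *HSF2* stood at 0.03 and the cold-inducible RNA-binding gene *RBM3* at 0.33. With all 14 fetuses, 3 of the 8 had estimates above 0 and 5 below, and the highest, of a further gene, was 0.36.

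The same gene could be followed in the other tissues. In muscle, on CPM without normalization factors, *HSPA1A* had a median of 100.0 in CON (37.3 to 184) and of 56.2 in RES (38.1 to 74.7), and in the liver a median of 1,773 in CON (640 to 3,419) and 1,166 in RES (54.4 to 3,299). The groups overlapped in both tissues, as they did in the cerebrum. The difference between its diet effect in the cerebrum and the mean effect in liver and muscle was -1.18 ± 0.54 on the log2 scale (unadjusted *p* = 0.0353, adjusted *p* = 0.867). Over the 15,972 genes of all 42 libraries, this difference of effects had an adjusted *p* under 0.05 for 0 genes (0%) and an unadjusted *p* under 0.05 for 883 (5.53%). With the animal as a replicate block, since the 3 tissues of a number came from the same fetus, 431 genes had an unadjusted *p* under 0.05, and without fetus RES 1 in any tissue 495 had one. With DESeq2's Wald test, 8 genes had an adjusted *p* under 0.05, among them *THBS2* and *OLFML1*, which are described with RES 1. By edgeR, the difference for *THBS2* was 5.09, and 0.47 (unadjusted *p* = 0.246) without fetus RES 1 in any tissue. For *OLFML1* it was 4.30, and 1.34 (unadjusted *p* = 0.0383) without this fetus.

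Several neural genes were lower in RES with and without RES 1. *SALL3* (ENSBTAG00000050200), a zinc finger transcription factor of the developing nervous system, had 11.8 to 52.8 CPM in CON (median 30.1) and 4.21 to 32.0 in RES (median 16.7). The lowest CON value was again CON 23, the lowest RES value RES 1, and 3 CON fetuses were above all RES fetuses. The estimate was -0.92 ± 0.31 (unadjusted *p* = 0.00955) and -0.74 ± 0.24 without RES 1 (unadjusted *p* = 0.00725).

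*GABRA5* (ENSBTAG00000003392) encodes the alpha 5 subunit of the GABA-A receptor, an inhibitory chloride channel that also shapes growth of young neurons. It had 13.8 to 49.3 CPM in CON (median 20.6) and 4.21 to 22.7 in RES (median 11.6). CON 23 was the highest of CON and RES 1 the lowest of RES, and 5 RES fetuses were below all CON fetuses. The log2 fold change was -0.90 ± 0.35 (unadjusted *p* = 0.0204), -0.72 ± 0.30 without RES 1 (unadjusted *p* = 0.0305), and -0.63 ± 0.31 without CON 23 (unadjusted *p* = 0.0578). None of the other 10 glutamate and GABA receptor, glycine receptor and chloride transporter genes of this list had an unadjusted *p* under 0.05, and the median of the 11 was -0.14 (0.05 without RES 1). *GRIA2*, the AMPA receptor subunit with most counts in the list, had a log2 fold change of 0.11 ± 0.26, and of 0.27 ± 0.19 without RES 1.

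*ZNF703*, a transcriptional corepressor, had 1.81 to 5.35 CPM in CON and 0.641 to 3.02 in RES, with a log2 fold change of -0.93 ± 0.37 (unadjusted *p* = 0.0233) and -0.83 ± 0.37 without RES 1. *NIM1K*, a kinase of the AMPK-related family, had 12.2 to 24.2 CPM in CON and 6.32 to 16.8 in RES, and stood at -0.57 ± 0.24 (unadjusted *p* = 0.0314) with RES 1 and at -0.45 ± 0.22 (unadjusted *p* = 0.0566) without it. *FGFBP3*, a carrier of fibroblast growth factors, had 6.59 to 28.7 CPM in CON and 6.16 to 16.1 in RES, and 5 CON fetuses were above all RES fetuses (log2 fold change -0.73 ± 0.34, unadjusted *p* = 0.0451). In each of these genes the groups overlapped, and in *NIM1K* and *FGFBP3* the unadjusted *p* was above 0.05 without RES 1. For *FGFBP3* the estimate was then -0.62 ± 0.33 (unadjusted *p* = 0.0753), and -0.74 (unadjusted *p* = 0.0249) without RES 1 and CON 23 together.

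A pair of small RNA genes was also among the lowest *p* values. *SNORD14*, a small nucleolar RNA that guides methylation of ribosomal RNA, had 1.21 to 4.94 CPM in CON and 0.455 to 2.31 in RES, and a log2 fold change of -1.15 ± 0.41 (unadjusted *p* = 0.0117), and of -1.17 ± 0.43 without RES 1. The RNA of nuclear RNase P, which trims transfer RNA precursors, had a log2 fold change of -1.43 ± 0.56 (unadjusted *p* = 0.022), and of -1.42 ± 0.60 without RES 1. In CON 23 it was at 37.2 CPM and in the other CON fetuses at most at 8.82, and without CON 23 the estimate was -0.52 ± 0.30 (unadjusted *p* = 0.105). Its value in CON 23 thus set most of the estimate.

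*LBX1* and *HOXB2* are homeobox genes of the hindbrain and spinal cord, and *LBX1* was near the least that a library can show. *LBX1* had a median of 0.797 CPM in CON, with 2.83 in CON 68 and 1.55 in CON 69, and was at 0 in 4 RES fetuses and at 1.24 at most, in RES 55. Its log2 fold change was -2.74 ± 0.74 (unadjusted *p* = 0.00193), and -2.86 ± 0.79 without RES 1. In the muscle libraries, on CPM without normalization factors, the median of *LBX1* was 6.55 in CON and 5.14 in RES. *HOXB2* ran from 0 to 11.8 CPM in CON, highest in CON 68, and from 0 to 5.99 in RES, and stood at -0.80 ± 0.85 (unadjusted *p* = 0.36) with all fetuses and at -2.65 ± 0.76 (unadjusted *p* = 0.00308) without RES 1. CON 68 was the library with the highest sum over the hindbrain and spinal cord list (5 of 12 genes named, *GBX2* with most counts), 61.6 CPM, against at most 31.2 in the other libraries. CON 68 was the only female of CON, and RES 55 was also female. The fits hold a term for fetal sex, so these estimates are not plain ratios of the CPM given. The part of the hindbrain, spinal cord or muscle in the estimates was not tested.

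Without RES 1, 3 further named genes had a lower estimate in RES with an unadjusted *p* under 0.05. *PTGER3*, a receptor of prostaglandin E2, had a log2 fold change of -1.14 ± 0.37 (unadjusted *p* = 0.00783), *NDP*, a secreted ligand needed by brain vessels, of -0.74 ± 0.27 (unadjusted *p* = 0.015), and *PCBP3*, an RNA-binding protein, of -0.50 ± 0.19 (unadjusted *p* = 0.019). With RES 1 they stood at -0.69, -0.13 and -0.24. RES 1 had 25.3 CPM of *NDP* and 28.8 of *PCBP3*, above all 7 CON fetuses, and 2.43 CPM of *PTGER3*, within the range of CON and above the other RES fetuses. Without RES 1, *NDP* ran from 4.63 to 6.95 CPM in RES and from 6.57 to 16.6 in CON, so that 5 RES fetuses were below every CON fetus.

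**Figure D3:**
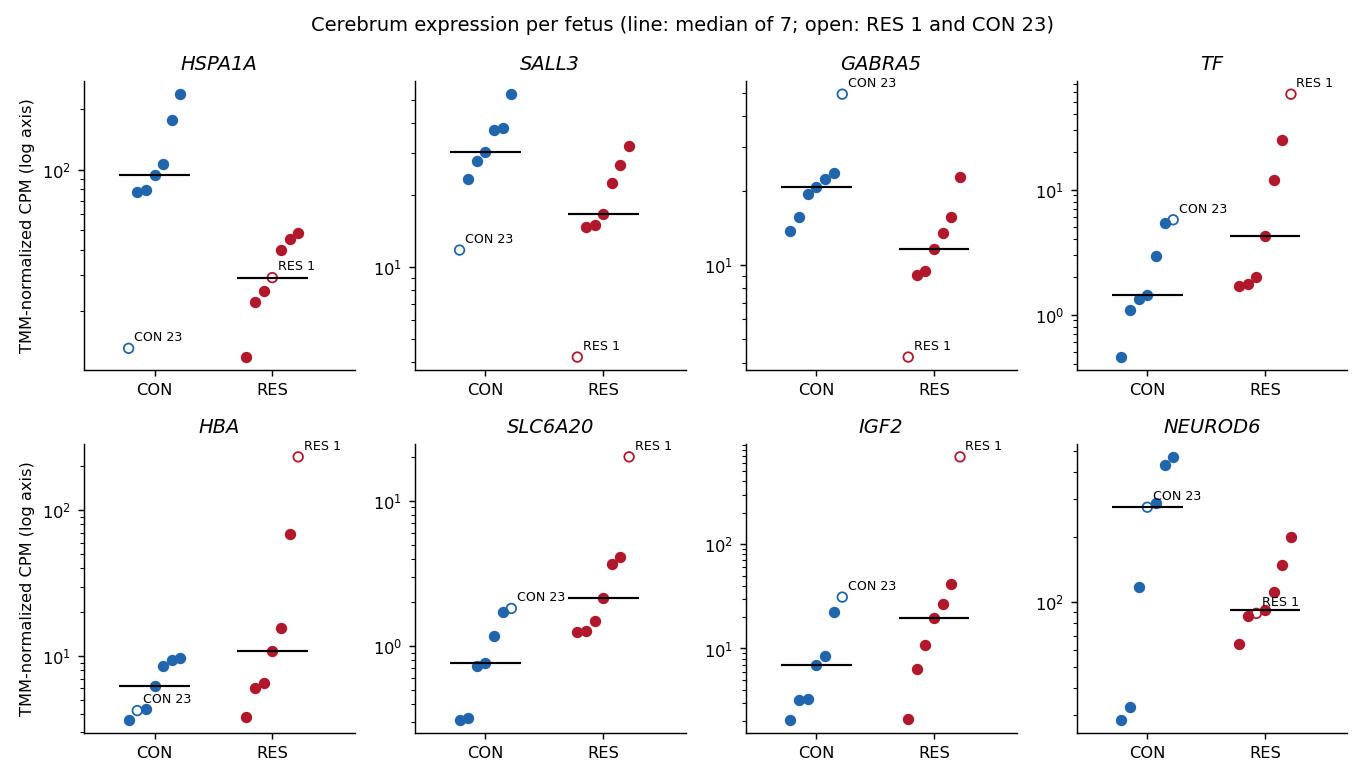
TMM-normalized CPM of 8 genes in each fetus of both diets, on log axes, with the median of 7 as a line and RES 1 and CON 23 as open circles. For *HSPA1A*, 6 CON fetuses lie above all RES fetuses and CON 23 is near the bottom, and for *TF*, *HBA*, *SLC6A20* and *IGF2* the highest RES value is that of RES 1.

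Among the named genes that were higher in RES, several encode plasma proteins or proteins of red blood cells. *TF* (ENSBTAG00000007273), which encodes transferrin, the iron carrier of plasma, had 0.458 to 5.74 CPM in CON (median 1.43) and 1.71 to 58.0 in RES (median 4.26). RES 1 was highest, followed by RES 33 with 24.9 and RES 25 with 11.8, and the other 4 RES fetuses lay within the range of CON. The log2 fold change was 2.56 ± 0.76 (unadjusted *p* = 0.00377) and 1.76 ± 0.66 (unadjusted *p* = 0.0167) without RES 1. The same 3 fetuses led for *AHSG*, with 278 CPM in RES 1, 121 in RES 33 and 31.2 in RES 25 against at most 16.8 in CON, where CON 2 was highest. For *AHSG* the log2 fold change was 4.01 ± 1.27 (unadjusted *p* = 0.00605) and 3.03 ± 1.14 (unadjusted *p* = 0.0172) without RES 1.

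*ALB*, which encodes serum albumin, had 3.88 to 14.8 CPM in CON (median 4.03) and 3.81 to 92.2 in RES (median 10.8), and its estimate was 2.01 ± 0.63 (unadjusted *p* = 0.00597) and 1.37 ± 0.56 (unadjusted *p* = 0.0259) without RES 1. RES 1 was highest, RES 33 had 55.2 CPM and RES 25 had 16.6, and the other 4 RES fetuses lay within the range of CON or, for RES 52, just below it. Of the 11 liver genes kept, *FGG*, a fibrinogen chain, reached 1 CPM in 3 RES libraries and in no CON library, and so passed the filter through RES alone. The other 10 had a positive estimate with and without RES 1, with a median log2 fold change of 2.22 and 1.67. Of these 10, the unadjusted *p* was under 0.05 for 6 with RES 1 and for 5 without it (*ALB*, *AHSG*, *TF*, *APOB* and *ITIH2*), where 2.18% and 0.356% of all genes tested were higher in RES at this level. Without RES 1 and CON 23 together, 3 were left (*ALB*, *AHSG* and *TF*). *APOB* and *FGA* were at 0 counts in 8 of the 14 libraries and *VTN* in 9. Whether the liver transcripts came from liver cells or from other cells was not tested.

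*HBA* (ENSBTAG00000051412), a gene with near-identical copies, had 3.66 to 9.78 CPM in CON (median 6.20) and 3.85 to 233 in RES (median 10.9). RES 1 was highest, RES 25 had 68.3 and RES 33 had 15.6, and 4 RES fetuses were above all CON fetuses. The log2 fold change was 2.73 ± 0.75 (unadjusted *p* = 0.00214) and 1.54 ± 0.51 (unadjusted *p* = 0.00786) without RES 1. *ALAS2*, the erythroid enzyme that starts heme synthesis, followed with 2.06 ± 0.71 (unadjusted *p* = 0.0102) and 1.13 ± 0.53 (unadjusted *p* = 0.0517). All 7 red blood cell genes kept had positive estimates in both fits, with a median of 1.79 and 1.13, and 4 with RES 1 and 1 without it had an unadjusted *p* under 0.05, beside 2.18% and 0.356% of all genes. As the libraries are of whole tissue, more cells of a type and more RNA per cell cannot be told apart.

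The genes *SLC6A20*, *LVRN*, *PGM5* and *BOLA* had smaller estimates without RES 1 that still had an unadjusted *p* under 0.05. *SLC6A20*, a proline transporter of the meninges and choroid plexus, had 0.310 to 1.81 CPM in CON and 1.24 to 20.1 in RES, and 5 CON fetuses were below all RES fetuses. On the log2 scale RES was higher by 2.36 ± 0.69 (unadjusted *p* = 0.00342) and 1.22 ± 0.49 (unadjusted *p* = 0.0239) without RES 1. *LVRN*, a membrane aminopeptidase, had 4.23 to 7.82 CPM in CON, and all RES fetuses but RES 70 were above this range, with 7.08 to 12.1 in RES without RES 1 and 65.6 in RES 1. Its estimate was 1.42 ± 0.46 (unadjusted *p* = 0.00699) and 0.58 ± 0.22 (unadjusted *p* = 0.0184) without RES 1. *PGM5*, a protein of adherens junctions related to phosphoglucomutase, stood at 1.36 ± 0.43 and 0.73 ± 0.29 (unadjusted *p* = 0.0251), and *BOLA*, a class I histocompatibility gene with near-identical copies, at 2.88 ± 0.86 and 1.98 ± 0.73 (unadjusted *p* = 0.0156).

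Other genes were higher in RES mostly through RES 1, and the lists of muscle and of the coverings of the brain moved with it. Of 10 skeletal muscle genes kept, 9 had an unadjusted *p* under 0.05 with RES 1 and 0 without it, beside 2.18% and 0.356% of all genes, and the median log2 fold change went from 2.26 to 0.48. It went from 2.53 to 0.00 for 3 genes of surface epithelium, from 0.95 to 0.04 for 4 of cartilage, from 1.52 to 0.21 for 2 of the choroid plexus, and from 2.34 to 0.72 for 3 of the meninges and fibroblasts, where 1 gene, *SLC6A20*, had an unadjusted *p* under 0.05 in both fits. *THBS2*, a thrombospondin of connective tissue, had 340 CPM in RES 1 and from 0.884 to 4.10 in the other RES fetuses, within the 0.244 to 4.23 of CON. Its log2 fold change was 4.57 ± 1.41 (unadjusted *p* = 0.00524) with RES 1 and 0.26 ± 0.53 (unadjusted *p* = 0.626) without it. *TMEM119*, a membrane protein of bone-forming cells and of mature microglia, was at 58.0 CPM in RES 1 and at most at 1.82 in any other fetus (4.31 ± 1.17, and 0.82 ± 0.61 without RES 1). *OLFML1*, a secreted protein, went from 4.36 ± 1.22 to 1.27 ± 0.76, and *COPZ2*, of the vesicle coat, from 2.84 ± 0.87 to 0.61 ± 0.43. *ACTC1* went from 3.49 ± 1.09 to 0.45 ± 0.55.

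Of the genes that the study's supplementary tables list for the cerebrum as differing by diet, chosen on these same fetuses and so no independent evidence, 25 were kept. Of the 25, RES 1 was the highest of 14 libraries for 24. The exception was *HSPA1A*. The median log2 fold change of the 25 was 2.81 with RES 1 and 0.61 without it, and *p* under 0.05 before adjustment belonged to 22 higher and 1 lower with RES 1, and to 3 higher (*TF*, *ALB* and *AHSG*) and 1 lower (*HSPA1A*) without it. Over all genes tested, the shares were 2.18% higher and 0.363% lower with RES 1, and 0.356% and 0.37% without it.

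**Figure D4:**
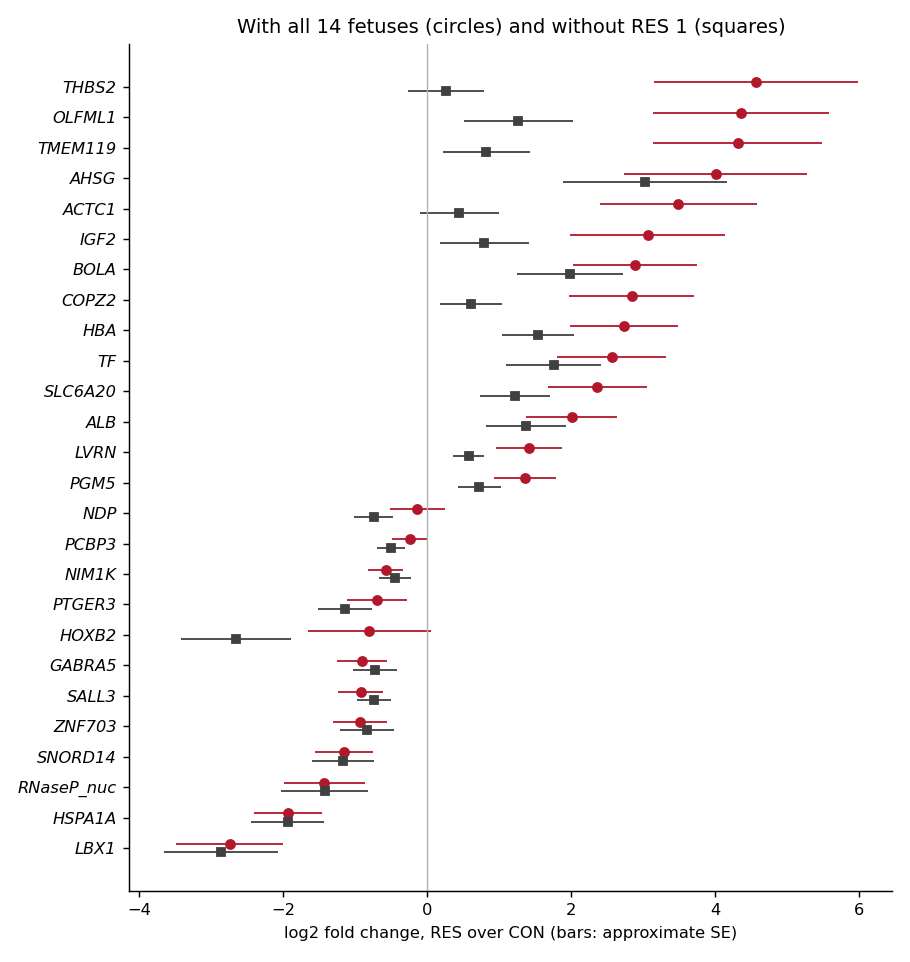
Log2 fold change (RES over CON) of 26 named genes with its approximate SE, for all 14 fetuses (circles) and without RES 1 (squares). *HSPA1A*, *LBX1*, *SNORD14* and *ZNF703* hardly move when RES 1 is left out, while *THBS2* goes from 4.57 to 0.26 and *HOXB2* from -0.80 to -2.65.

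Several lists of neural cells, those of cortical, ventral and young neurons and of progenitors among them, had medians below 0 in RES with and without RES 1. *NEUROD6* had 28.6 to 468 CPM in CON (median 274) and 64.2 to 199 in RES (median 91.7). Of the CON fetuses, 4 were above and 2, CON 54 and CON 69, below all RES fetuses, so that the CON group spread more widely than RES. The CON median was the value of CON 23. On CPM without normalization factors the medians were 146 in CON and 97.5 in RES, and 3 CON fetuses were above all RES fetuses. Its log2 fold change was -0.92 ± 0.52 (unadjusted *p* = 0.0928) and -0.83 ± 0.54 without RES 1. *TBR1*, a factor of deep-layer neurons, followed with -0.68 (-0.75 without RES 1). Of the 10 genes of cortical excitatory neurons kept (of 14 listed, *NEUROD6* with most counts), 1 had a positive estimate, none an unadjusted *p* under 0.05, and the median was -0.30 (-0.28 without RES 1, against -0.03 and -0.04 for all genes).

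All 9 markers of GABAergic and ventral neurons that were kept had estimates below 0 with the 14 fetuses. These genes of the ventral forebrain and interneuron list (of 17, *GAD1* with most counts) had a median of -0.42 and of -0.35 without RES 1, and 0 had an unadjusted *p* under 0.05. *GAD1*, the enzyme that makes GABA, was at -0.06 ± 0.20 (-0.07 ± 0.21 without RES 1). The interneuron factor *NKX2-1* was at -0.91, and at -0.62 without RES 1. Without RES 1 and CON 23 together, *NKX2-1* and *NPY* had unadjusted *p* values of 0.0482 and 0.0451, and the median of the 9 was -0.42. The summed CPM of the list was low in CON 23 (284), RES 25 (338) and RES 1 (349), and lay between 464 and 784 in all others.

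Lists of progenitors and young neurons had medians from -0.38 to -0.20. The 7 radial glia genes kept (of 16, *HES5* with most counts) had a median of -0.20 and of -0.13 without RES 1, with 1, *FGFBP3*, lower at an unadjusted *p* under 0.05 with RES 1, beside 0.363% of all genes. The 5 intermediate progenitor genes kept (of 7, *HES6* with most counts) had a median of -0.23 in both fits. The 13 genes of young neurons kept had a median of -0.38, of -0.23 without RES 1, and of 0.01 without RES 1 and CON 23 together. *ELAVL4* ran from 217 to 829 CPM in CON, highest in CON 23, and from 77.8 to 323 in RES, lowest in RES 1 (-0.49 ± 0.35, unadjusted *p* = 0.186, and -0.30 ± 0.31 without RES 1). It was at -0.11 ± 0.25 without CON 23 and at 0.06 ± 0.15 without both of these libraries. Of the 111 genes that the supplementary tables give as specific to the cerebrum, RES 1 had the lowest level for 71, and the median log2 fold change was -0.27 with it and -0.13 without. This list, too, was chosen on these fetuses, and 3 of its genes with RES 1 and 2 without it had an unadjusted *p* under 0.05, all lower in RES, beside 0.363% and 0.37% of all genes.

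Among the other brain cells, the medians were -0.34 with all 14 fetuses and -0.20 without RES 1 for 6 diencephalic and hypothalamic genes (*OTX2* with most counts), -0.34 and -0.30 for 3 of the glial lineage (*S100B*), and 0.01 and 0.03 for 3 of Cajal-Retzius and early pallial neurons (*LHX1*). They were further below 0 without RES 1 for 3 genes of the hindbrain and spinal cord (-0.49 and -1.07) and 3 of the neural crest and peripheral nerve (-0.18 and -0.53, *PRPH*). None of these genes had an unadjusted *p* under 0.05 in either fit. For 4 microglial genes (*C1QB* with most counts), 3 endothelial genes and 6 pericyte genes (*NOTCH3*), the medians were 0.83, 1.02 and 0.24 with RES 1, and -0.12, -0.14 and 0.03 without it. With RES 1, *ESAM* of the endothelium (unadjusted *p* = 0.0481) and *ACTA2* of the pericyte list (unadjusted *p* = 0.0201) were higher in RES. Without it, both had an unadjusted *p* above 0.6 and estimates of 0.17 and 0.10.

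**Figure D5:**
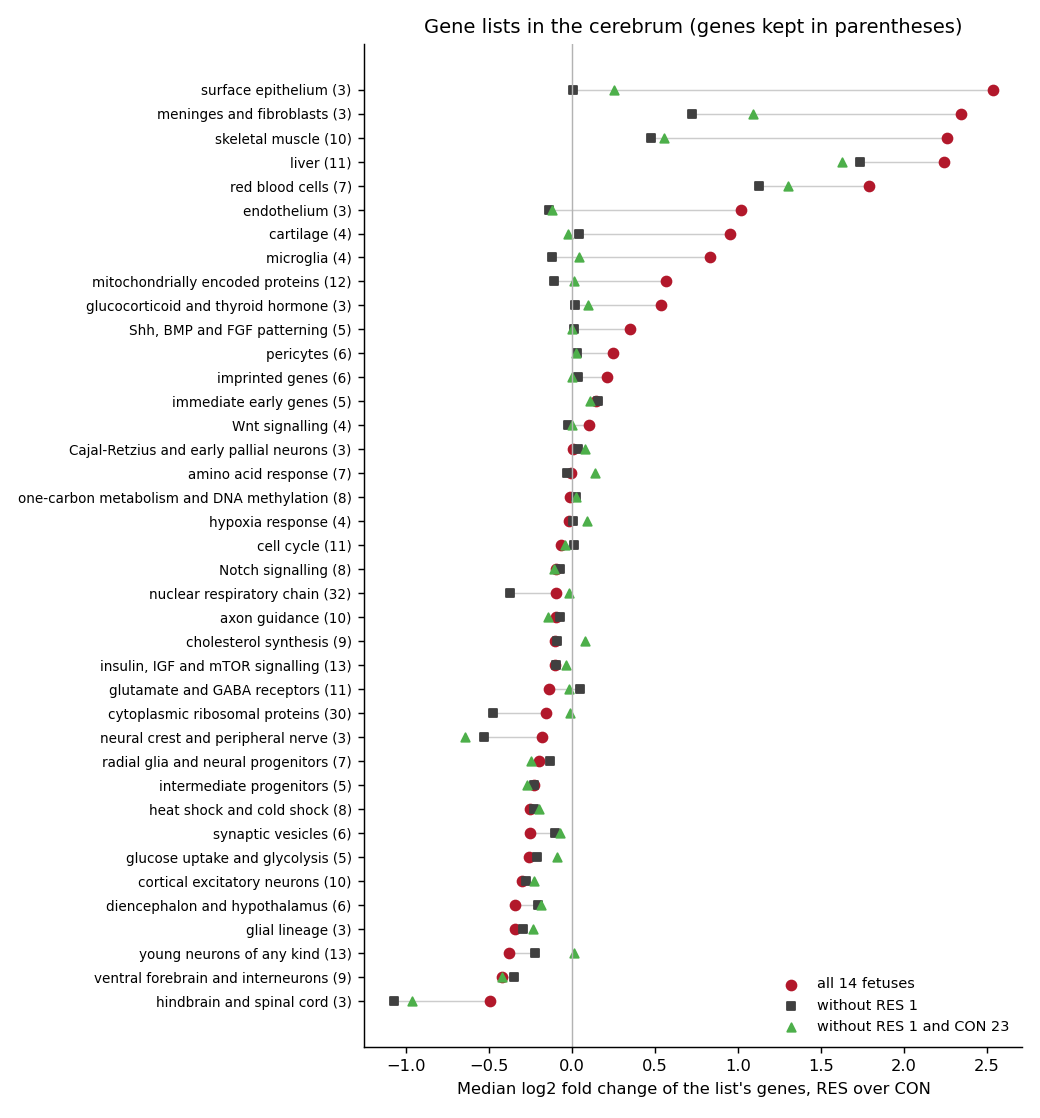
Median log2 fold change (RES over CON) of each gene list with at least 3 genes kept, for all 14 fetuses (circles), without RES 1 (squares) and without RES 1 and CON 23 (triangles). The liver and red blood cell lists stay above 1 in all 3 fits, and the lists of surface epithelium, endothelium and microglia lie near 0 without RES 1.

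Genes of nutrient sensing and growth had small estimates. Of 13 genes of insulin, IGF and mTOR signalling kept (of 35, *IGFBP2* with most counts), 1 was higher in RES with an unadjusted *p* under 0.05, beside 2.18% of all genes: *IGF2*, the fetal growth factor. *IGF2* was at 689 CPM in RES 1, at 2.12 to 41.9 in the other RES fetuses and at 2.07 to 31.1 in CON, with a log2 fold change of 3.07 ± 1.08 (unadjusted *p* = 0.0117) and 0.80 ± 0.62 (unadjusted *p* = 0.217) without RES 1. *IGFBP2*, which binds it, was at 0.01 ± 0.31, and at -0.28 ± 0.28 without RES 1. *TSC1* and *TSC2*, the brake on mTOR, stood at -0.16 and -0.19 (0.02 and -0.19 without RES 1), and *RRAGB*, a GTPase by which lysosomes report amino acids to mTOR, at -0.09 ± 0.20 with RES 1 and 0.06 ± 0.15 without it. *RRAGB* had 73.2 to 118 CPM in CON and 80.1 to 102 in RES without RES 1, and 39.0 in RES 1.

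In metabolism, the medians without RES 1 were -0.03 for 7 genes of the amino acid response (*SLC38A2* with most counts), -0.21 for 5 of glucose uptake and glycolysis (*ENO2*), 0.01 for 4 of the hypoxia response (*HIF1A*), -0.09 for 9 of cholesterol synthesis, 0.03 for 8 of one-carbon metabolism and DNA methylation and -0.21 for 2 of the unfolded protein response (*CALR*). None of these 35 genes had an unadjusted *p* under 0.05 in either fit. *SLC38A2*, a neutral amino acid transporter that cells raise when amino acids are short, had 293 to 891 CPM in CON and 318 to 618 in RES (-0.12 ± 0.27, and -0.03 ± 0.27 without RES 1).

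Ribosomal and mitochondrial genes followed the libraries that stood apart. The 30 cytoplasmic ribosomal protein genes (*RPL4* with most counts) had a median log2 fold change of -0.16 with all 14 fetuses, of -0.48 without RES 1 and of -0.01 without RES 1 and CON 23 together. For the 32 nuclear respiratory chain genes kept (*ATP5F1B* with most counts) these medians were -0.10, -0.37 and -0.02, and for 12 mitochondrially encoded genes (*COX1* with most counts) 0.57, -0.11 and 0.01. None of these genes had an unadjusted *p* under 0.05. Mitochondrial genes took 4.13% ± 1.37 of the counts in the CON libraries (SD over 7) and 5.62% ± 4.06 in RES (SD over 7), and an exact two-sided permutation of the diet labels gave *p* = 0.506 (0.827 adjusted over 4 library measures). Without RES 1 the RES share was 4.11% ± 0.77 (SD over 6), and the same exact permutation gave *p* = 0.988.

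Of the signalling and neuronal function lists, 11 cell cycle genes (*TOP2A* with most counts) had a median of -0.07, 8 Notch genes (*NOTCH1*) of -0.10, 10 axon guidance genes (*L1CAM*) of -0.10, 6 synaptic vesicle genes (*SYT4*) of -0.25, 5 immediate early genes (*IER2*) of 0.15, 5 genes of Shh, BMP and FGF patterning (*FGFR2*) of 0.35, and 3 of glucocorticoid and thyroid hormone signalling (*THRA*) of 0.54, none with an unadjusted *p* under 0.05. Of 6 imprinted genes (*PEG3* with most counts, median 0.21), *IGF2* alone had one, and of 4 Wnt genes (*DKK3*, median 0.10), *WNT11*, both higher in RES, as 2.18% of all genes were at this level. *WNT11* was at 53.9 CPM in RES 1 and at most at 1.72 in any other fetus. *IFIT3*, the interferon-induced gene that could be named, had 6.32 CPM in RES 1 and at most 2.28 elsewhere (unadjusted *p* = 0.0467, and 0.294 without RES 1). Without RES 1, the medians of these lists other than the interferon response, where 1 gene was kept, lay between -0.11 and 0.16. *NOTCH1* was at -0.60 ± 0.28 (unadjusted *p* = 0.0471) without CON 23, and at -0.42 ± 0.17 (unadjusted *p* = 0.0267) without RES 1 and CON 23 together. In the latter fit 1 Notch gene, *NOTCH1*, and 1 axon guidance gene were lower at this level, beside 96 of all genes.

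Genes that the study names for the cerebrum among its hubs and regulators of co-expression had no unadjusted *p* under 0.05 in either fit. That status rests on changes of correlation between the diets, which a comparison of mean levels does not test. *ETS2*, an ETS family transcription factor, had a log2 fold change of 0.04 ± 0.26, *ZNF207*, a spindle assembly and zinc finger protein, of -0.11 ± 0.19, and *SLC17A6*, the vesicular glutamate transporter, of -0.16 ± 0.25. *PAK5*, a neuronal kinase, was at -0.37 ± 0.33, *GPR12*, an orphan receptor, at -0.62 ± 0.41, and *CLVS2*, a clathrin-linked sorting protein, at -0.37 ± 0.24. Without RES 1, *ETS2* stood at -0.16 ± 0.24 and the other 5 were nearer to 0 than with it, between -0.45 and 0.01. CON 23 had 103 CPM of *GPR12* and the other CON fetuses 31.5 at most. Without CON 23, *GPR12* was at -0.11 ± 0.26, *PAK5* at -0.10 ± 0.27 and *CLVS2* at -0.22 ± 0.21, and without RES 1 and CON 23 together they were at 0.04, 0.08 and -0.10. *GATA1*, the erythroid factor, was not kept by the filter, with at most 0.244 CPM in CON, 3.40 in RES 1 and 2.11 in RES 33.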

How the data were processed

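RNA was sequenced as strand-specific, paired-end libraries, and the authors aligned the reads with STAR 2.7.3a after quality control with FastQC 0.11.8, on the ARS-UCD1.2 assembly with Ensembl genes. The deposited values are raw read counts per gene. The strand column that was kept is not given in the sources used here, so a gene and its antisense partner cannot be told apart. Symbols were available for 5,131 of the 22,664 genes, from the study's supplementary tables. No gene coordinates are given, because the reference table at hand is of another assembly. Every column belonged to 1 fetus and tissue, groups came from the labels, and fetal sex as typed by the authors.

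Counts were tested with edgeR 4.0.16 (glmQLFit and glmQLFTest, TMM factors, R 4.3.3) with diet and fetal sex in the model, on genes with at least 1 CPM in more than 20% of the libraries. DESeq2 1.42.0 and limma 3.58.1 were alternatives, and the script was tested on simulated counts. Log2 CPM for principal components used a prior count of 1. The effect of diet in the cerebrum was set against the mean effect in liver and muscle in 1 model of all 42 libraries. Animal numbers were taken to pair the tissues. Deviations from the group means of the same fetus correlated between cerebrum and liver with *r* from -0.228 to 0.335. Between cerebrum and muscle *r* ran from -0.162 to 0.168. Different fetuses were not correlated in this way, so these values do not test the pairing. Exact permutations ran over all 3,432 splits of the fetuses, or 1,716 without RES 1. Genes were named by rule: *NEUROD6* and *ELAVL4*, the 8 symbols per direction with the lowest *p* in each of 2 fits, the gene of each list with most counts and list members with *p* under 0.05, and genes that the study names. *MYOG*, *BAIAP2*, *TBR1*, *NKX2-1*, *NPY*, *TSC1*, *TSC2* and the other heat shock genes were added after their values were seen. Some results are not reported here. Members and lists were chosen with earlier results of these data known.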

Additional observations from a re-analysis of the deposited data

Results flagged for a closer look

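In groups of 7 libraries, Dixon's gap test at the 95% level was applied to the highest and the lowest value of library measures, list sums and named genes. It marked 27 of 96 groups, where chance would mark about 1 in 20, and 16 of the 27 concerned RES 1 and 9 concerned CON 23. Many of the genes were named through fits that hold RES 1, and RES 1 was known to stand apart, so the number of marks cannot be set against chance.

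RES 1 stood apart from the other RES libraries in its total of 7,576,159 counts, in the 15.1% of counts taken by its 10 leading genes and in its mitochondrial share of 14.7%. Among summed CPM it was low for young neurons (3,271) and for the diencephalon and hypothalamus (100.2), and high for endothelium (120.1), cartilage (167) and surface epithelium (67.1). Among TMM-normalized CPM of single genes, RES 1 was high for *THBS2* (339.9), *COPZ2* (87.0), *LVRN* (65.6), *TMEM119* (58.0), *OLFML1* (45.4), *NDP* (25.3) and *SLC6A20* (20.1), and low for *SALL3* (4.21).

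CON 23 stood apart from the other CON libraries in the 13.4% of counts taken by its 10 leading genes. Its summed CPM were low for radial glia (95.0), intermediate progenitors (49.9), pericytes (50.9), endothelium (26.5) and cartilage (9.31). Its TMM-normalized CPM were low for *HSPA1A* (12.99) and high for *GABRA5* (49.3) and for the RNA of nuclear RNase P, RNaseP_nuc (37.2). CON 2 was high in the summed CPM of the liver list (125.3) and CON 46 in that of skeletal muscle (46.5).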

How the results depend on the processing

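The count of genes with an adjusted *p* under 0.05 was 0 in the 25 alternatives run. The 386 genes with an unadjusted *p* under 0.05 became 740 with no filter on low counts, 168 without RES 1 and CON 23, and, without RES 1, 127 by DESeq2 and 114 by edgeR with robust dispersion. Genes higher in RES (331) became 603, 72, 48 and 54 in these fits, and genes lower in RES (55) became 137 with no filter, 96 without RES 1 and CON 23, and 196 by limma voom with quality weights. Leaving out 1 fetus at a time gave 110 (RES 1) to 635 (RES 6) genes, with 242 without CON 73. It gave 54 (RES 1) to 563 (RES 6) higher, with 196 without CON 73 and 214 without CON 54, and 37 (RES 25) to 102 (CON 23) lower, with 86 without CON 54 and 94 without RES 33. Of 1,185 pairs of a named gene and an alternative, 931 kept the direction and the side of the threshold of 0.05, 224 lost *p* under 0.05, 20 gained it and 10 changed sign. *HSPA1A* had an unadjusted *p* under 0.05 in every alternative, with estimates from -2.13 to -1.63 when 1 fetus was left out and adjusted *p* of 0.0964 by DESeq2 and 0.218 by limma voom.

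Signs changed for *ACTA1* (-0.13 by limma voom), *KRT8* (-0.0051 without RES 1 and CON 23, -0.041 by DESeq2 without RES 1), *WNT11* (-0.12 without RES 1 by edgeR, robust edgeR and DESeq2, and -0.015 without RES 1 and CON 23, with 3.68 as its highest value, without CON 68) and *NDP* (from -0.74 without RES 1 to 0.032 without CON 23, with 0.001 without RES 25 and 0.0039 without RES 52). Without RES 1, RES minus CON was -1.17 for the percent of counts in the 10 leading genes and -0.0266 for the mitochondrial percent. For the contrast of tissues, the replicate block left 0 genes at an adjusted *p* under 0.05 and turned 883 at an unadjusted *p* under 0.05 into 431. Without fetus RES 1 there were 495, and 322 with the replicate block, and DESeq2 gave 8 at an adjusted *p* under 0.05. The cause of these changes was not tested. The alternatives without RES 1 and CON 23 together, without CON 23 for single genes, and without RES 1 by other tools were chosen after the data were seen. Genes near 1 CPM, such as *LBX1*, rest on few counts, and a difference there was not detectable below the 3-count limit.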

Other observations

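The homeobox genes of the HOX clusters, which give segments of the hindbrain and spinal cord their identity and are not used by the forebrain, were looked at after the values were seen. Of the 17 that could be named, CON 68 had counts for 11, summing to 100.3 CPM, with *HOXA6* at 19.3, *HOXC8* at 15.4 and *HOXA4* at 14.8, and *HOXD10* at 0. RES 1 followed with 12.4 CPM, RES 55 with 8.85 and CON 46 with 6.05. RES 52 had all 17 at 0, and the other libraries summed to at most 3.16 CPM.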
